A study of Mus musculus with 96 samples.

Results

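The forebrain of sleep-deprived mice was compared with that of undisturbed mice across a full circadian day, using 24 of the 96 RNA libraries of a study of forebrain, cerebellum, liver and kidney. All animals were wild-type male C57BL/6 mice aged 6 to 8 weeks. Sleep-deprived mice (SD, which here never means a standard deviation) were forced to walk in a rotating drum for 10 h of their resting phase, and control mice (CON) were left undisturbed. Both groups were then kept in constant darkness. Sampling began at circadian time 4 (CT4) and was repeated at steps of 4 h until CT24, for 6 times in all, with 2 biological replicates for each condition and time. This gave 12 SD and 12 CON libraries in 12 groups. The members were every library whose label named the forebrain, and the change was averaged over the times by fitting condition and time point together. How long after the deprivation the first sample was taken, and whether the tissues of one number came from the same mouse, are not given in the sources used here.

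Summed gene counts ranged from 30.1 to 36.5 M in CON (median 33.3 M) and from 29.0 to 48.0 M in SD (median 33.9 M). Levels are given as CPM, a count divided by the summed counts of its library in M, so 1 CPM stood for 29.0 to 48.0 reads. The tissue label held against its markers. Emx1, a transcription factor of the dorsal forebrain, lay between 4.37 and 13.4 CPM in every library, while Cbln3, a granule cell gene of the cerebellum, did not exceed 0.0333 CPM. The dissection varied, however. Neurod6, a transcription factor of cortical excitatory neurons, ranged from 3.51 to 67.1 CPM and Drd2, a dopamine receptor of the striatum, from 0.891 to 86.4 CPM, with the lowest Neurod6 in CON replicate 1 at CT8. In bulk tissue, fewer cells of a type and less RNA per cell cannot be told apart.

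The changes described below concern antigen presentation. Major histocompatibility complex (MHC) class I molecules display peptides from inside the cell on its surface, where T cells and natural killer cells inspect them. Their heavy chains pair with beta-2 microglobulin and are loaded with peptides cut by the immunoproteasome and carried by the TAP transporter. NLRC5 is the transactivator of class I genes, and interferons induce NLRC5, class I genes and several families of large GTPases that act against intracellular pathogens. In the healthy brain these genes are expressed at low levels, mainly in microglia and vascular cells.

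Sleep deprivation was followed by lower RNA of 7 genes in the forebrain, and 5 of them encode MHC class I heavy chains or their transactivator. H2-K1, H2-D1, H2-Q6, H2-Q7 and Nlrc5 fell, as did the guanylate-binding protein gene Gbp4 and Klrk1, which encodes the activating receptor NKG2D of natural killer and T cells. The classical heavy chains fell by 27.9% to 34.4%, Nlrc5 and Gbp4 by 49.4% and 50.8%, and H2-Q6 and H2-Q7 by 60.3% and 61.8%. In edgeR no gene rose. Of 23078 genes tested, 7 passed an adjusted p of 0.05 (edgeR quasi-likelihood F-test with Benjamini-Hochberg adjustment), all lower, or 0.0303% of the genes tested. Before adjustment, 804 genes (3.48%) were lower and 675 (2.92%) higher at p under 0.05. The median log2 fold change (SD minus CON) of all genes tested was 0.0046, and 11097 of the 23078 were negative. The list counts below are to be read beside these values for all genes. limma-voom called the same 7 genes. DESeq2 called 17, which were these 7 with Gbp2, Gbp5, Gzma, H2-Q5, Psmb9, Tmem9 and Tnfrsf14 on the lower side and Ccdc146, Cyp4f15 and Gm12229 as 3 higher genes.

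The proximal promoters of the 4 heavy chain genes are shown because these genes moved together and are alike over this stretch. RefSeq promoters (250 bases before to 50 after the start, GRCm38.p6) matched 5 of the 7 genes. Nlrc5 and Gbp4 had no entry. Capitals mark, in order, a match to GAANNGAAA on the opposite strand, an interferon-stimulated response element core, and a match to CTGATTGG on the opposite strand, known as the Y-box of MHC promoters.
H2-K1 (chr17:34000320-34000449, minus strand): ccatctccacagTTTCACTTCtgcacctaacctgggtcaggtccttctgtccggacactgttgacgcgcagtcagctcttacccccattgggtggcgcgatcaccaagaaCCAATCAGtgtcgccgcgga
H2-D1 (chr17:35262932-35263060, plus strand): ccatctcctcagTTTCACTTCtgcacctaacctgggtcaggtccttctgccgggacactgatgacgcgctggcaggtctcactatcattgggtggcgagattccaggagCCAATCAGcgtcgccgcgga
H2-Q6 (chr17:35424686-35424814, plus strand): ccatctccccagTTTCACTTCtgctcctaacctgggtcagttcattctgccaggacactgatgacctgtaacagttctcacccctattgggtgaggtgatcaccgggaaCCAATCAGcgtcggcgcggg
H2-Q7 (chr17:35439030-35439158, plus strand): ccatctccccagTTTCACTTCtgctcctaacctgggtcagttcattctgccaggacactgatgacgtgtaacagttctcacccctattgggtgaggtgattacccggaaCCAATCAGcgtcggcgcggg

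Over the first 60 bases of these stretches, H2-K1 and H2-D1 had 57 bases in common, and H2-Q6 and H2-Q7 had 60. Both motifs were added after the sequences had been seen and were searched on both strands. GAANNGAAA matched 5 of 5 promoters of the called genes, against 7.52% of all 32851 promoters, and CTGATTGG matched 4 of 5, against 4.1%. The planned core GAAANNGAA matched 1 of 5 (8.56% of all) and the gamma-activated site TTCNNNGAA matched 0 of 5 (8.3% of all). The first of these 2 overlaps GAANNGAAA in Klrk1, where the capitals run through both matches.
Klrk1 (chr6:129623887-129623924, minus strand): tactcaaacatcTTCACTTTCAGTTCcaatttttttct

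A match is a description of these letters and does not show that a factor bound there.

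H2-K1, a classical class I heavy chain gene (chr17:33996017-34000347, minus strand), had a lowest, median and highest level of 15.5, 21.7 and 30.9 CPM in CON and of 11.5, 14.1 and 18.7 CPM in SD. The ranges overlapped, but within a time both SD libraries lay below both CON libraries at 5 of 6 times. The log2 fold change was −0.61 ± 0.07 (SE, n = 12 and 12, adjusted p = 0.00163). H2-D1, the other classical heavy chain gene (chr17:35262730-35267499, plus strand), ran through 24, 32.4 and 40.3 CPM in CON and 18.3, 24.1 and 26.4 CPM in SD. Again both SD libraries were the lower at 5 of 6 times, with a log2 fold change of −0.47 ± 0.07 (adjusted p = 0.0104). Per kilobase of exon, H2-D1 was the more abundant of the pair in CON, at 12.6 against 7.5 CPM.

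H2-Q6 and H2-Q7 encode nonclassical class I molecules of the Qa-2 group and were far less abundant, at 0.359 and 0.347 CPM per kilobase of exon in CON. H2-Q6 (chr17:35424850-35430055, plus strand) ran from 0.430 through 0.722 to 1.08 CPM in CON and from 0.124 through 0.323 to 0.548 CPM in SD. At all 6 times both SD libraries lay below both CON libraries, although the ranges over all times overlapped (log2 fold change −1.33 ± 0.22, adjusted p = 0.0188). H2-Q7 (chr17:35439155-35443773, plus strand) ran through 0.768, 1.24 and 2.91 CPM in CON and 0.124, 0.541 and 1.16 CPM in SD. Both SD libraries were the lower at 5 of 6 times, with a log2 fold change of −1.39 ± 0.25 (adjusted p = 0.0460). These genes have near copies. Of the distinct 150-base stretches of their transcripts, 5.99% of H2-Q6 occurred also in H2-Q7 and 5.9% of H2-Q7 in H2-Q5, H2-Q6 or H2-Q10, so reads may be shared or lost among them. For H2-D1 the share was 1.35% and for H2-K1 it was 0%.

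Nlrc5, the class I transactivator (chr8:94434356-94527272, plus strand), had 1.33, 1.92 and 3.56 CPM as its lowest, median and highest value in CON and 0.583, 1.13 and 1.6 CPM in SD. It was lower in both SD libraries than in both CON libraries at every one of the 6 times, and its log2 fold change was −0.98 ± 0.15 (adjusted p = 0.0104). Gbp4, an interferon-induced GTPase gene (chr5:105115767-105139586, minus strand), gave 3.81, 5.95 and 8.77 CPM in CON and 1.29, 2.98 and 5.30 CPM in SD. It too was separated at 6 of 6 times, with a log2 fold change of −1.02 ± 0.16 (adjusted p = 0.0161).

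Klrk1 (chr6:129610323-129623864, minus strand) was close to the limit of detection. Its lowest, median and highest level was 0, 0.0963 and 0.383 CPM in CON and 0, 0.0104 and 0.0890 CPM in SD, resting on 65 reads over 12 CON libraries and 10 reads over 12 SD libraries. It was at 0 in 1 CON and 6 SD libraries. The log2 fold change of −2.63 ± 0.45 (adjusted p = 0.0316) depends on the prior count used for such low values. Klrk1 met the count filter only through CON libraries, since no SD library held more than 3 reads. It was not called when the filter on low counts was left out, so its call is the least secure of the 7.

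**Figure D1:**
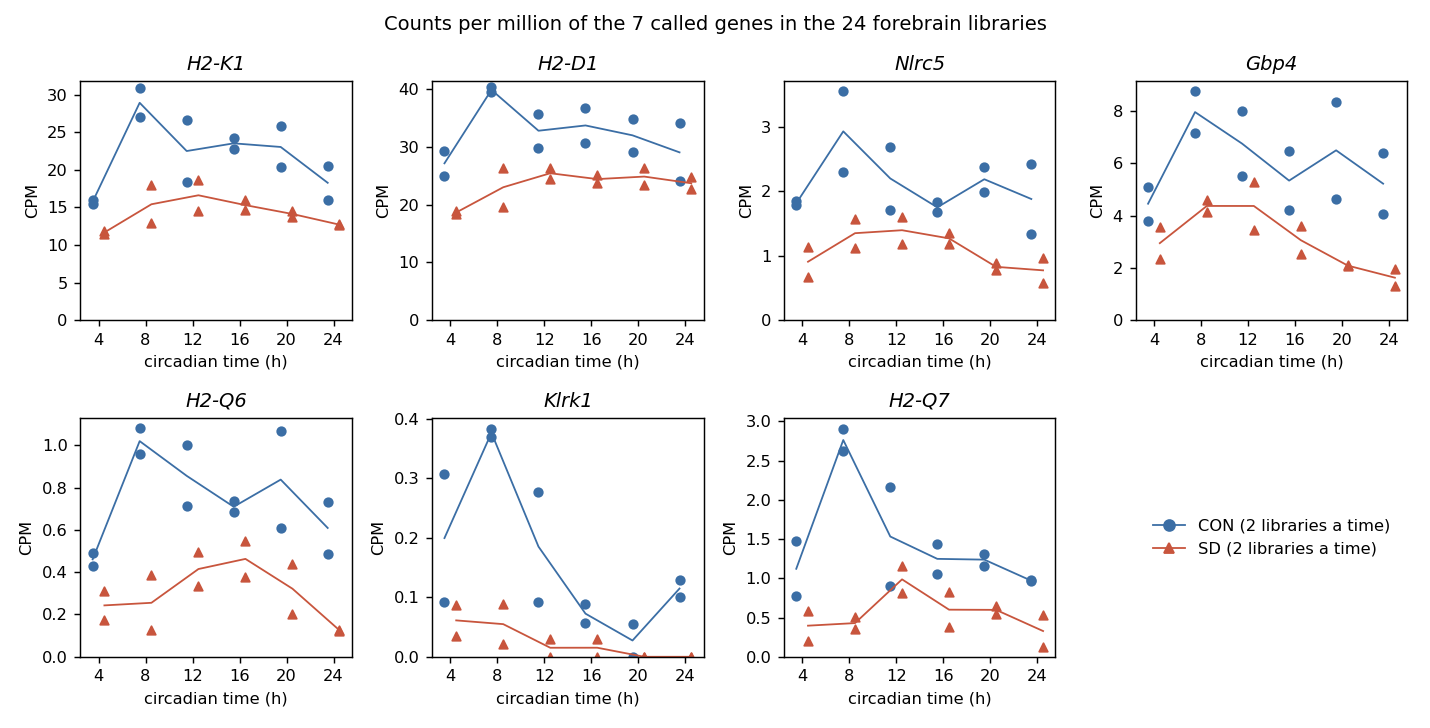
CPM (y axis, linear from 0) of the 7 called genes against circadian time in hours (x axis); points are single libraries, 2 for each condition and time, and lines join their means. The SD mean lies below the CON mean at all 6 times in all 7 genes, and for H2-K1 the highest CON library (30.9 CPM) is at CT8.

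The direction was shared by all times. The mean of the SD libraries was below that of the CON libraries at 6 of 6 times for all 7 genes, compared with 459 genes (1.99%) of all those tested. These 7 genes were chosen by the fit over the same 6 times, which favours such a pattern, so it is a description and not separate support. At single times, H2-K1 ranged from −0.88 at CT8 to −0.42 at CT12 on the log2 scale, Nlrc5 from −1.41 at CT20 to −0.52 at CT16, and Gbp4 from −1.68 at CT24 to −0.59 at CT4. The calls themselves were uneven in strength. H2-K1, H2-D1 and Nlrc5 were called with any 1 of the 24 libraries left out. Gbp4 was lost without SD replicate 2 of CT24 (adjusted p = 0.0556), H2-Q6 was called in 20 of these 24 fits, H2-Q7 in 6 and Klrk1 in 5. Without CON replicate 1 of CT8, the library with the least Neurod6, 5 genes were called, all but Klrk1 and H2-Q7. The count of called genes fell to 3 without SD replicate 2 of CT24 and to 4 without CON replicate 2 of CT8, CT12 or CT20, and only H2-K1 was called without CT4, without CT8 or without CT20. With CT16 left out 2 genes were called (H2-K1 and Nlrc5), and 2 with CT24 left out (H2-D1 and H2-K1). Just outside the threshold stood Gbp5 (adjusted p = 0.0720) and H2-Q5 (adjusted p = 0.103).

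**Figure D2:**
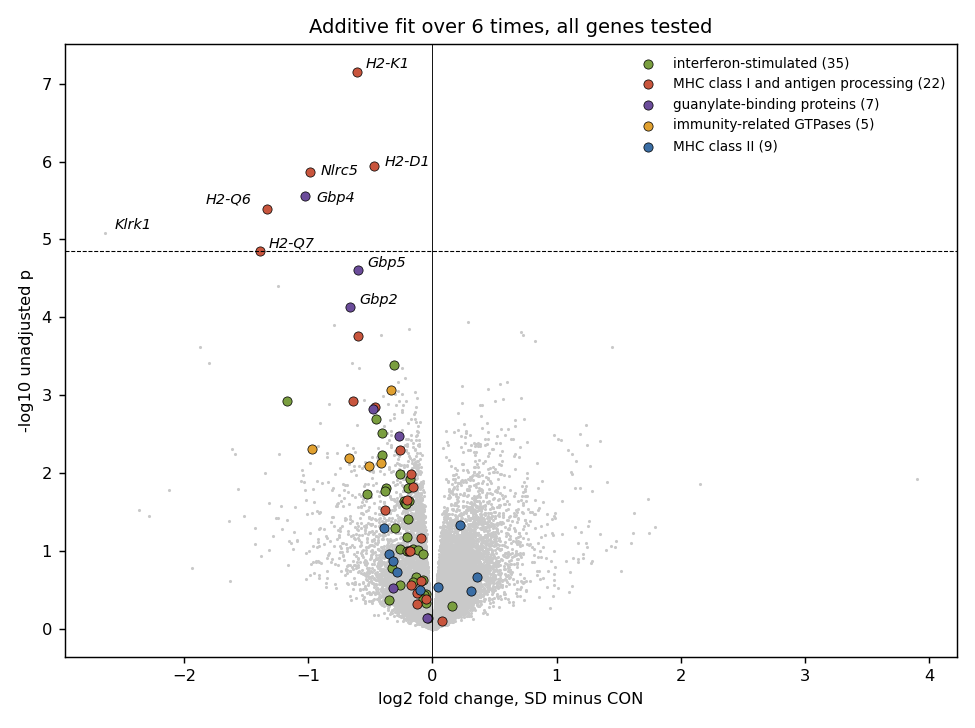
Each point is 1 of the 23078 genes tested, with its log2 fold change (SD minus CON, x axis) and −log10 of its unadjusted p (y axis); colours mark members of 5 immune lists and the dashed line the p of the last gene called. The called genes all lie on the left, and Gbp5 and Gbp2 are the next coloured points below the line.

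Other members of the class I pathway did not pass the edgeR test, and DESeq2 called Psmb9 and H2-Q5 beside the genes above. Of 22 members of the MHC class I and antigen processing list tested, 5 fell after adjustment, 13 were lower and 0 higher at an unadjusted p under 0.05, and the median log2 fold change was −0.20, with 21 members negative. Psmb9, a catalytic subunit of the immunoproteasome, was at −0.60 ± 0.13 (adjusted p = 0.235), and Tap1, a subunit of the peptide transporter, at −0.46 ± 0.13 (adjusted p = 0.597). Tap1 had 1.87, 2.96 and 4.00 CPM as lowest, median and highest in CON and 1.54, 2.33 and 3.08 CPM in SD, so that its ranges overlapped widely. Tapbp, which bridges TAP and the heavy chain, was at −0.18, and the aminopeptidase gene Erap1 at −0.15, neither past the threshold. Tap1, Tapbp and Erap1 were chosen after their values were seen. B2m, the light chain, could not be assessed, since its count lay between 0.0208 and 0.276 CPM in every library and it was not tested.

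Among the interferon-inducible GTPases, the guanylate-binding proteins had 7 members tested, of which 1 (Gbp4) fell, 5 were lower and 0 higher before adjustment, with a median of −0.48. Gbp5 gave 2.91, 3.46 and 5.39 CPM in CON and 1.80, 2.50 and 3.14 CPM in SD, and was the lower in both SD libraries at 5 of 6 times (−0.60 ± 0.11). Gbp2 was at −0.66 ± 0.14 (adjusted p = 0.172) and Gbp3 at −0.48 ± 0.13 (adjusted p = 0.607). All 5 immunity-related GTPases tested were lower before adjustment and 0 passed it, with a median of −0.51. Irgm1, which helps to target damaged pathogen vacuoles, ran through 7.23, 8.59 and 11.2 CPM in CON and 5.67, 6.57 and 9.27 CPM in SD (−0.33 ± 0.09, adjusted p = 0.587). Igtp was at −0.41 ± 0.14 and Irgm2 at −0.97 ± 0.31 (adjusted p = 0.712 and 0.682). The core GAAANNGAA matched 4 of 4 guanylate-binding protein promoters and 3 of 3 of the immunity-related GTPases, against 8.56% of all promoters. One promoter of each family is shown, with this core, and in Igtp also the gamma-activated site that precedes it, in capitals.
Gbp2 (chr3:142620593-142620625, plus strand): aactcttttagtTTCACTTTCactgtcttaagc
Igtp (chr11:58199499-58199542, plus strand): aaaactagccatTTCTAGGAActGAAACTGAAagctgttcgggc

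Interferon-stimulated genes as a wider class showed the same sign. Of 35 tested, 34 had a negative log2 fold change, 16 were lower and 0 higher before adjustment, 0 passed it, and the median was −0.21. Of all 23078 genes tested, 11097 were negative and 3.48% were lower before adjustment. The smallest p belonged to Sp100, a nuclear body protein gene (−0.31 ± 0.07, adjusted p = 0.411), then to Zbp1, a sensor of Z-form nucleic acids (−1.17 ± 0.31, 0.587), Usp18, which removes ISG15 (−0.45 ± 0.13, 0.680), and Ifitm3, which blocks viral entry (−0.41 ± 0.12, 0.682). GAAANNGAA matched 15 of 26 of their promoters. Isg15 and Irf9 were listed at 0 in all 24 libraries, so these members were not tested. Such zeros may be failed counts rather than absent RNA, because Sox10, a transcription factor gene that oligodendrocytes use, was also listed at 0 in 24 libraries although the oligodendrocyte markers summed to 824 to 5960 CPM. The same doubt touches B2m. Of 13 interferon receptors and JAK-STAT regulators, 9 had a negative log2 fold change, 1 was lower (Ptpn6, a phosphatase, −0.27) and 1 higher (Irf2, a repressor, 0.15) before adjustment, and the median was −0.03.

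Other immune lists held no gene past the adjusted threshold in edgeR. Among 9 MHC class II genes, 0 passed, 0 were lower and 1 was higher before adjustment (Ciita, the class II transactivator, 0.22 ± 0.10, unadjusted p = 0.0466), with a median of −0.10. Class II medians ranged over the times from −0.61 to 0.18, whereas the class I medians ranged from −0.54 to −0.14. Of 12 complement and scavenging genes all 12 had a negative log2 fold change. Before adjustment 1 was lower, which was not a complement gene (Lgals3bp, a galectin-3 binding protein gene, −0.36 ± 0.11). Of 12 cytokines and chemokines 2 were lower (Ccl5, −0.85 ± 0.27, and Il33, −0.32 ± 0.12). The list medians were −0.10 and −0.06. The medians of the guanylate-binding proteins (−0.79 to −0.12), the immunity-related GTPases (−0.67 to −0.15) and the interferon-stimulated genes (−0.33 to −0.10) were below 0 at each of the 6 times, while those of all genes stayed between −0.01 and 0.01.

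**Figure D3:**
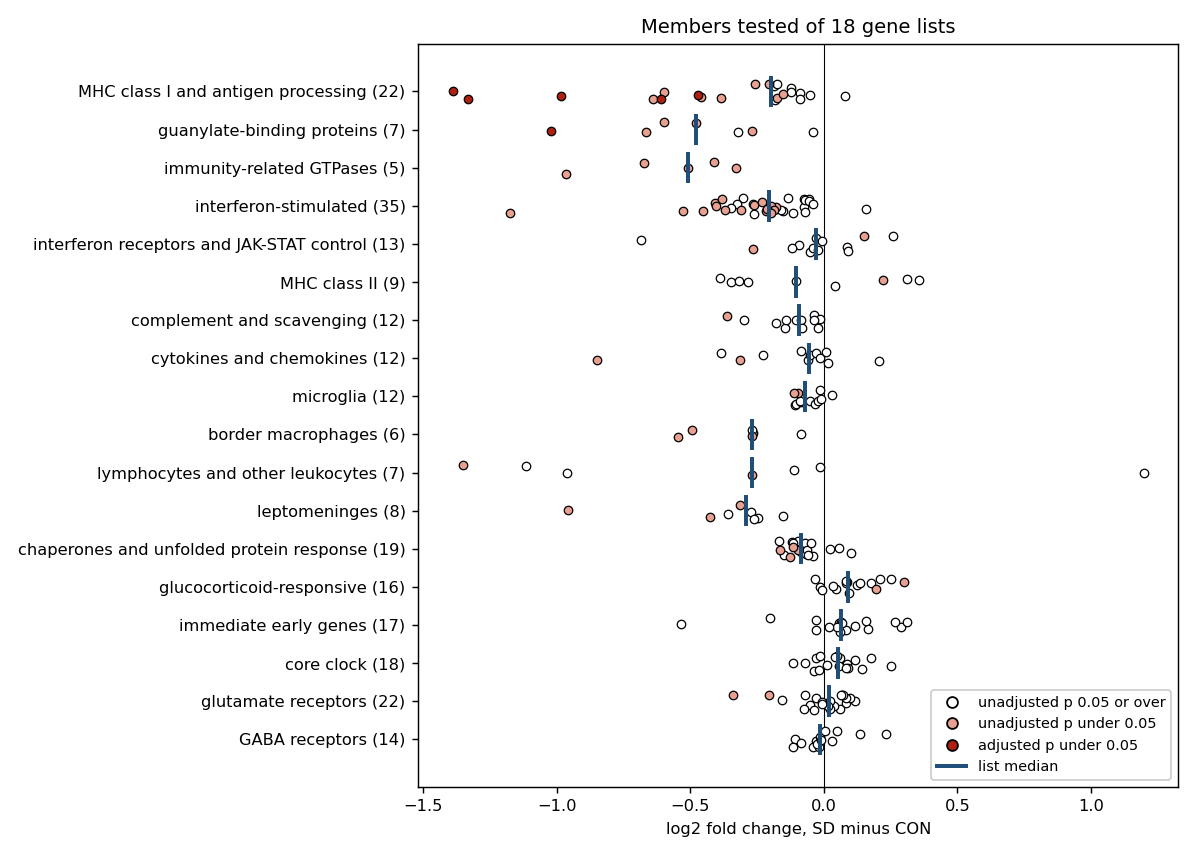
Log2 fold change (SD minus CON, x axis) of every member tested of immune, cell marker and sleep-related lists, with the number tested in parentheses; filled points passed an adjusted (dark) or only an unadjusted (light) p of 0.05 and bars are list medians. The medians of the class I, GTPase and interferon-stimulated lists lie at −0.20, −0.48, −0.51 and −0.21.

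Markers of blood-derived, border and vascular cells are given here beside these genes. Among all 23078 genes tested, 11097 were negative and 3.48% were lower before adjustment. Of 7 leukocyte markers tested, 2 were lower before adjustment (Ptprc, the pan-leukocyte phosphatase CD45, −0.27, and Nkg7, a cytotoxic granule gene, −1.35), while Cd4, a T helper cell coreceptor gene, was at 1.2 ± 0.60 (unadjusted p = 0.0576). Cd4 was highest (15.3 CPM) in SD replicate 2 of CT20, where striatal Drd2 was highest (86.4 CPM). It was lowest (0.184 CPM) in CON replicate 1 of CT4, where Drd2 was lowest (0.891 CPM). Cd4 may thus follow the dissection here, which was not tested. The leukocyte list had 6 members with a negative log2 fold change and a median of −0.27. Its summed level overlapped, at 63.7 to 89.6 CPM in CON and 62.6 to 86.4 CPM in SD. Ptprc did not exceed 10.5 CPM in any library, so other members made up most of this sum. The defining lymphocyte genes were near 0, with medians in CON and SD of 0.105 and 0.0381 CPM for Cd3e and of 0.0592 and 0.0442 CPM for Cd8a. Gzma, a granzyme of natural killer and T cells named after its values were seen, had 0.0552, 0.249 and 0.916 CPM as lowest, median and highest in CON and 0, 0.0523 and 0.335 CPM in SD. Of 6 border macrophage markers, all 6 were negative, with a median of −0.27, and 3 were lower before adjustment (Lyve1, −0.55 ± 0.14, Pf4 and Mrc1). Their sums were 8.30 to 21.8 CPM in CON and 6.26 to 14.8 CPM in SD. Of 12 microglial markers, 11 were negative and 2 were lower (Csf1r, −0.10, and Cx3cr1, −0.11) with a median of −0.07. Of 9 endothelial markers, 8 had a negative log2 fold change and 2 were lower before adjustment (Ly6c1, −0.14, and Itm2a, −0.11), with a median of −0.09, and of 7 pericyte and smooth muscle markers 7 were negative and 0 were lower before adjustment. Of 8 leptomeningeal markers, all 8 were negative, with a median of −0.29, and 3 were lower (Dcn, −0.96, Slc22a6 and Col1a2). Dcn stood at 81.0 CPM in CON replicate 2 of CT4 and at 27.3 CPM or less in the other CON libraries. At single times the leptomeningeal median ran from −0.98 at CT8 to 0.26 at CT24. No marker list had a member past the adjusted threshold.

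With the level of the leukocyte list added to the fit, 3 genes were called (H2-D1, H2-K1 and Nlrc5), and with that of the microglial list only H2-K1 was called. Both adjustments were chosen after the data had been seen. With the leukocyte and the microglial term, the log2 fold changes were −0.56 and −0.57 for H2-K1, −0.99 and −0.99 for Nlrc5, and −1.04 and −0.94 for Gbp4. Without these terms they were −0.61, −0.98 and −1.02. The part of cell composition in the calls was not tested. The striatal and choroid plexus lists varied widely within both groups. The choroid plexus sum was 83.3 to 326 CPM in CON (median 175) and 128 to 686 CPM in SD (median 209). The striatal sum was 64.0 to 803 CPM in CON (median 99.8) and 71.2 to 885 CPM in SD (median 218). All 5 striatal markers tested had a positive log2 fold change (median 0.62), as had 10 of 11 choroid plexus markers (median 0.44). The 8 oligodendrocyte markers were also all positive (median 0.13). Of these lists 0 members were higher or lower before adjustment. A term for the choroid plexus left 7 genes called and a term for the striatum left 5.

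**Figure D4:**
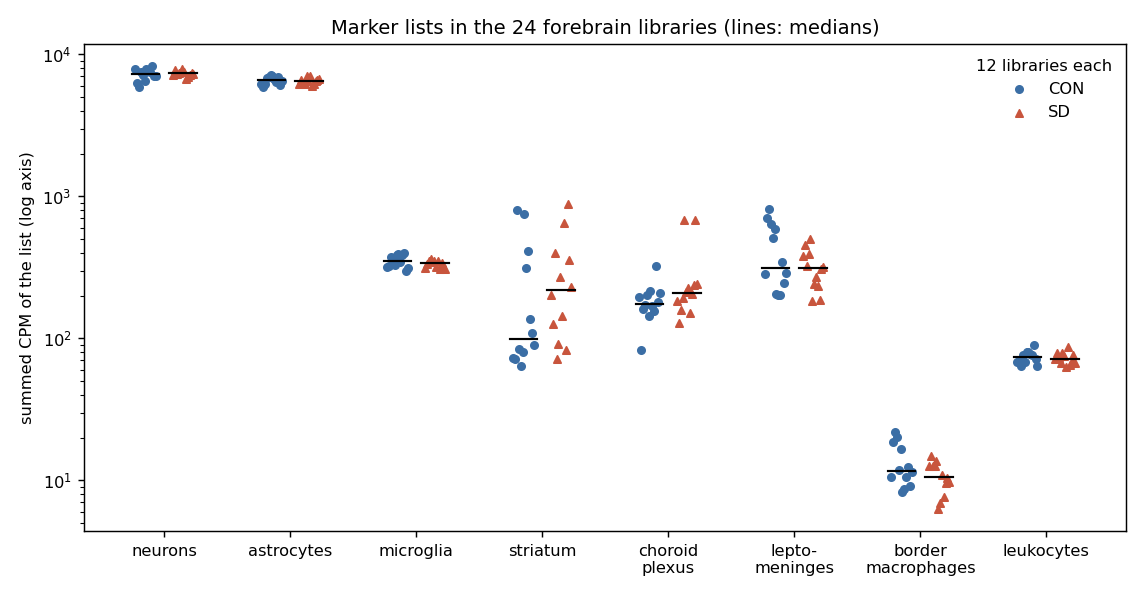
Summed CPM (y axis, log scale) of the members of 8 marker lists in each of the 12 CON and 12 SD libraries, with lines at the medians. Neurons, astrocytes and microglia lie within narrow ranges, while the striatal, choroid plexus and leptomeningeal sums spread widely in both conditions.

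The other genes with the smallest p and at least 1 CPM did not pass the edgeR test, although DESeq2 called Cyp4f15 (adjusted p = 0.0119), Tmem9 (0.0181) and Tnfrsf14 (0.0184) among them. On the higher side Cyp4f15, a fatty acid hydroxylase of the cytochrome P450 family, ran through 7.12, 8.45 and 9.99 CPM in CON and 8.84, 9.99 and 13.3 CPM in SD. Its mean was higher in SD at 6 of 6 times (0.29 ± 0.06, adjusted p = 0.235). Vcan, which encodes the matrix proteoglycan versican, ran through 31.6, 37.2 and 43.4 CPM in CON and 37.1, 43.8 and 56.4 CPM in SD (0.23 ± 0.06, adjusted p = 0.587). Fam107a, a stress-responsive actin regulator gene, was at 0.25 ± 0.07, the integrin gene Itgad at 0.60 ± 0.15, the endosomal exchanger gene Slc9a9 at 0.38 ± 0.10, Gm21985 at 0.21, the lipoprotein receptor gene Lrp1b at 0.20 and the alanine transaminase gene Gpt2 at 0.11, with adjusted p between 0.565 and 0.682. On the lower side, beside Gbp5, Gbp2, Psmb9 and Sp100, stood Tmem9, a lysosomal membrane protein gene (−0.19 ± 0.04, adjusted p = 0.235), and Tnfrsf14, a receptor of the tumour necrosis factor family (−0.41 ± 0.09, adjusted p = 0.235). Rnf213, an interferon-inducible ubiquitin ligase gene (−0.24 ± 0.06, 0.417), and Maged2 (−0.22 ± 0.05, 0.538) completed the set.

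Gene groups known for responding to sleep loss showed no called member in the fit over all times. That fit averages over the times, so differences of opposite sign can cancel. In the core clock list, 0 of 18 genes reached even an unadjusted p of 0.05, and the median was 0.05. At single times the median of this list ran from −0.28 at CT16 to 0.21 at CT20. Per1 and Per2, repressors of the clock, were at 0.18 ± 0.10 and 0.12 ± 0.08, with Ciart at 0.25 and Nfil3 at 0.14. Immediate early genes, which mark recent neuronal activity, gave 0 of 17, with a median of 0.06 that ran from −0.61 at CT16 to 0.51 at CT12. Arc, a synaptic plasticity gene named as a familiar member after its values were seen, ran from 45.3 through 129 to 405 CPM in CON and from 51.7 through 181 to 383 CPM in SD, a spread that left its estimate at 0.31 ± 0.29. Of 19 chaperone and unfolded protein response genes, 4 were lower before adjustment (Xbp1, Pdia6, Hspa5, the endoplasmic reticulum chaperone BiP, −0.16 ± 0.07, and Calr) and 0 passed it. Of 4 cold-inducible RNA-binding genes 1 was lower (Cirbp, −0.13 ± 0.05). Of 16 glucocorticoid-responsive genes 2 were higher before adjustment, Sgk1, a kinase gene induced by corticosteroids (0.30 ± 0.11, unadjusted p = 0.0113), and Ddit4, an inhibitor of mTOR signalling (0.20 ± 0.09), and the list median was 0.09.

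Receptors and metabolic genes were near 0 as groups. Before adjustment 3.48% of all genes tested were lower, and the members named here stand beside that share. Of 22 glutamate receptor genes 2 were lower before adjustment (Grin2d, −0.21 ± 0.07, and Grin3a, −0.34 ± 0.14, both NMDA receptor subunits). None of 14 GABA receptor genes, 24 receptors of sleep and wake neuromodulators or 20 cholesterol synthesis genes reached an unadjusted p of 0.05 in the edgeR fit, so none passed the adjustment either. Of 21 glucose and lactate genes 1 was lower (Pygb, brain glycogen phosphorylase, −0.12 ± 0.05). Of 12 sleep and wake neuropeptide genes 1 was lower, Avp, whose CON libraries ran from 0 to 6.89 CPM around a median of 0.0491. The SE of the genes tested had a median of 0.106, so that small differences would not have been detectable with these libraries.

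Whether the difference between SD and CON depended on the time of day was asked with a test on the 5 condition by time terms. In edgeR, 0 of 23078 genes (0%) passed, 2604 genes (11.3%) had an unadjusted p under 0.05, and DESeq2 called 679. At single times, where each condition has 2 libraries, 526 genes were called at CT20, 426 of them higher in SD, 1 at CT16 and 0 at CT4, CT8, CT12 and CT24, where the unadjusted counts were 675, 1018, 1442 and 704. At CT20 the marker medians were also displaced, at 0.71 for oligodendrocytes, −1.98 for the choroid plexus and 0.46 for forebrain regions, and their part in that count was not tested. Among the 7 called genes the unadjusted p of the interaction lay between 0.138 and 0.59.

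The same genes were then followed in the other tissues, each with 12 SD and 12 CON libraries, to ask how the forebrain differences compared. Kidney groups were taken from the titles, which for 20 of the 24 kidney libraries named another condition or time than the listed characteristics. In the liver, 6 of the 7 genes fell, all but H2-K1 (−0.18 ± 0.07, adjusted p = 0.0760), and in the kidney 7 of 7, against 8.8% and 2.12% of all genes tested there. In the cerebellum 0 of 22218 genes passed in edgeR and 400 (1.8%) were lower before adjustment, among them the 6 of the 7 genes that were tested there, while Klrk1 was not tested. Their cerebellar log2 fold changes ran from −0.82 for Gbp4 to −0.23 for H2-D1. The fit of the cerebellum alone was not repeated with any of its libraries left out.

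The size of the difference was tested between tissues. The 7 genes had been chosen by their forebrain fall and the same forebrain libraries were used again, which favours a larger fall in the forebrain. Forebrain and cerebellum differed in 0 of 24219 genes (0%) by edgeR, and DESeq2 called 1. The edgeR count was also 0 with CON replicate 1 of CT8 in the cerebellum left out. For the called genes the forebrain minus cerebellum difference lay between −1.78 for Klrk1 and −0.21 for Gbp4, with adjusted p of 0.860 to 0.875. Forebrain and liver differed in 1733 of 25125 genes (6.9%). Among these were 5 of the 7, with a fall larger in the forebrain for H2-K1 (difference −0.45 ± 0.11, adjusted p = 0.00795), Nlrc5 (−0.55 ± 0.15, 0.0218), H2-Q6 (−0.83 ± 0.22, 0.0157), H2-Q7 (−0.94 ± 0.21, 0.00619) and Klrk1 (−1.67 ± 0.38, 0.00647). The Klrk1 value rests on the few forebrain reads given above. For H2-D1 (−0.22 ± 0.11, 0.228) and Gbp4 (0.14 ± 0.22, 0.792) no difference was shown. The levels were unlike, since H2-K1 had a CON median of 1552 CPM in the liver and 21.7 CPM in the forebrain. Forebrain and kidney differed in 12 of 25440 genes (0.0472%), and in none of the 7. There H2-K1 was at 0.41 ± 0.15 (adjusted p = 0.534) and H2-Q6 at −0.87 ± 0.20 (adjusted p = 0.116).

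**Figure D5:**
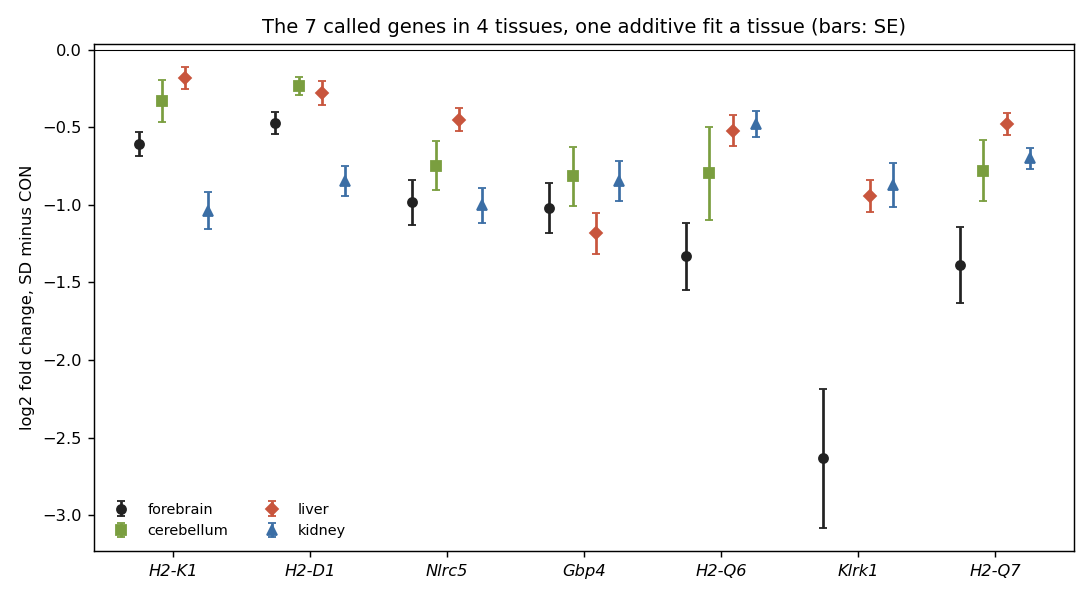
Log2 fold change (SD minus CON, y axis) of the 7 called genes in each tissue, with bars for the SE and no cerebellar point for Klrk1. All points lie below 0, and the forebrain point is the lowest for H2-Q6, Klrk1 and H2-Q7.

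Class II genes gave the following values, with no test of the difference between tissues. Of 11 tested in each, 10 were lower in the liver and 10 in the kidney before adjustment, where 14.1% and 7.26% of all genes were, with medians of −0.89 and −0.90. In the forebrain 0 of 9 and in the cerebellum 0 of 6 were lower, with medians of −0.10 and −0.20. H2-Aa, a class II alpha chain gene, was at −1.35 ± 0.14 in the liver and −0.95 ± 0.14 in the kidney, and at −0.35 ± 0.21 in the forebrain (adjusted p = 0.789). Interferon-stimulated genes had negative medians in every tissue, at −0.19 in the cerebellum, −0.31 in the liver, −0.41 in the kidney and −0.21 in the forebrain, with 5 of 35, 25 of 39, 35 of 38 and 16 of 35 members lower before adjustment.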

How the data were processed

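Total RNA libraries were strand-specific, depleted of ribosomal RNA and sequenced as pairs. The authors trimmed the reads with Trim Galore, aligned them to GRCm38 with HISAT2, filtered them by mapping quality with Samtools and counted pairs per gene with featureCounts by strand. The deposited values are raw counts for 54833 features, identical in 96 of 96 libraries to the separate files, of which 5248 are numbered loci without a gene name (0.405% of forebrain counts). The quality filter can remove reads of near-identical genes. Symbols (49326) and positions came from GENCODE M21. CPM are counts over the library total.

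Groups came from the titles. Genes were kept by filterByExpr (min.count 10) over 12 groups, scaled by TMM and fitted with time point and condition in edgeR 4.0.16 (R 4.3.3, quasi-likelihood F-test, Benjamini-Hochberg over all genes, threshold 0.05). SE is the absolute log2 fold change over the root of F. Tissues were compared by a tissue by condition term with time within tissue. P-values measure the spread between libraries. DESeq2 1.42.0, limma 3.58.1, other filters and scalings, added covariates, replicate blocks and leaving out each library or time were alternatives. The scripts were tested on simulated data. Within a time, same-numbered SD and CON libraries correlated between −0.277 (CT12) and 0.461 (CT8), with 0.454 at CT4. These values do not settle whether the numbers pair the samples.

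Genes named are all those called, the 8 protein-coding genes with the smallest p in each direction at a mean of at least 1 CPM, and up to 4 of the smallest p from each list. The gene lists and the comparison were chosen with earlier results of these data known.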

Additional observations from a re-analysis of the deposited data

Results flagged for a closer look

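In 5 genes the change after sleep deprivation differed between forebrain and liver by the test of the difference itself (edgeR quasi-likelihood F-test, Benjamini-Hochberg over 25125 genes), and in each the forebrain fell by more. All 5 had been chosen by their forebrain fall, and the same forebrain libraries entered both tests. That choice favours a larger fall in the forebrain, so the direction is not separate support. The forebrain minus liver log2 difference was −0.45 for H2-K1, −0.55 for Nlrc5, −0.83 for H2-Q6, −0.94 for H2-Q7 and −1.67 for Klrk1. That of Klrk1 is the least secure, since it rests on 65 CON and 10 SD reads in the forebrain. In the forebrain fit Klrk1 met the count filter only through CON libraries. With 1 library left out at a time, the adjusted p reached at most 0.0161 for H2-K1, 0.0356 for H2-Q6, 0.0172 for H2-Q7 and 0.0243 for Klrk1. That of Nlrc5 reached 0.0518 without CON replicate 2 of CT8 in the forebrain, where its difference was −0.48. The differences of H2-K1 (−0.28), Nlrc5 (−0.40) and H2-Q6 (−0.67) did not pass when libraries were scaled by their totals alone.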

How the results depend on the processing

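The direction of the 7 called genes in the forebrain was the same under every alternative that could be fitted. The count of 7 became 17 in DESeq2 (14 lower; Ccdc146, Cyp4f15 and Gm12229 higher), 4 with a mean of at least 1 CPM, 3 and 1 with the leukocyte and microglial terms, 1 without CT4, CT8 or CT20 and 2 without CT16 or CT24. It was 3 to 9 with 1 library left out. The test across times, with 0 called, gave 679 in DESeq2, 553 with no filter on low counts and 0 to 2 with 1 library left out (1 or 2 without CON replicate 1 of CT4, either CON replicate of CT8 or SD replicate 1 of CT8). Forebrain against cerebellum gave 1 in DESeq2. Forebrain against liver gave 2692 in DESeq2, 1127 with no filter and 1272 to 1672 with 1 library left out. Forebrain against kidney gave 55 in DESeq2, 6 with library totals alone and 3 to 19 with 1 library left out. It was 3 without SD replicate 1 of CT8, 7 without CON replicate 1 of CT16 or SD replicate 1 of CT24, and 19 without CON replicate 2 of CT8 or CT20 or SD replicate 2 of CT16, all forebrain libraries. The kidney difference of Nlrc5, near 0, changed sign with library totals (−0.0040), no filter (−0.00066) and in 8 fits with 1 library left out (range over all such fits −0.036 to 0.094). The cause of these changes was not tested.

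A replicate block within each time left 5 of the 7 forebrain calls (Klrk1 and H2-Q7 at an adjusted p of 0.109). Whether the numbers pair the samples is not settled. A block over the tissues gave 995 calls against the liver and an Nlrc5 kidney difference of −0.0062. Same-numbered libraries of different tissues correlated between −0.049 and 0.156 over all genes and between −0.206 and 0.315 over the immune lists, where both conditions of CT16 lay between 0.143 and 0.305 in all 3 tissues. Among the called genes, depth limits Klrk1 most, with 65 CON and 10 SD reads.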
